A study of Drosophila melanogaster with 2 samples.

Results

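Huckebein peaks on the X chromosome of Drosophila melanogaster are the 377 intervals of the peak list that carry X as their sequence name, out of 1623 intervals in all. They come from chromatin immunoprecipitation followed by sequencing (ChIP-seq) of untreated whole embryos aged 8 to 16 h, precipitated with the antibody KW3-hkb-D1. The labels describe iso1 (y; bw cn sp) or transgenic flies without saying which were used here, and they give neither the sex of the embryos nor the cell types that carried the factor. The ChIP sample is 1 list whose title names replicates 1 and 2, so no replicate spread exists. The 1 input sample, chromatin of the same stage without precipitation, has no values analysed here. Read depth behind the peaks is unknown. The X peaks are set beside those of the autosomal arms 2L (234 peaks), 3L (280) and 3R (373), and with 1 list none of the differences between arms was tested.

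Huckebein is a zinc-finger transcription factor of the terminal gap class. In the early embryo it is made at both poles, where it sets the extent of the mesoderm and specifies endoderm, and it can repress its targets with the co-repressor Groucho. Later embryos use it in the salivary gland and in the developing nervous system. The X is the sex chromosome, and in males, which carry a single copy, its transcription is raised by dosage compensation. Positions are 1-based on build BDGP5, in which low coordinates of X lie at its telomere and high ones towards its centromere. Genes near the peaks and the bound sequence were not analysed here, because no sequence or annotation of this build was used.

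Huckebein peaks were denser on X than on 2L, 3L or 3R and were unevenly spread along it. The densest regions lay towards both ends of X and near its middle. The first X peak began at 412743 and the last ended at 21878084, a distance of 21.5 Mb that is used below as the length of the arm. Over it X held 17.6 peaks per Mb, against 13.4 on 3R, 12.05 on 3L and 10.5 on 2L. The density of X was 1.45 times that of the other 3 arms together (95% interval 1.28 to 1.64, Clopper-Pearson on the share of peaks, which treats peaks as independent). Peaks covered 1.21% of the X length, compared with 0.972% of 3R, 0.848% of 3L and 0.739% of 2L.

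When each arm was cut into 5 equal parts, the part of X nearest the centromere held the most peaks. It extended from 17585016 to 21878084 and held 103 peaks, or 27.3% of those on X, at 24.0 peaks per Mb. The neighbouring part, from 13291948 to 17585015, held the fewest, 54 peaks at 12.6 per Mb. The 3 remaining parts had 79, 66 and 75 peaks in order from the telomere. Strong peaks, taken as those scoring 200 or more, numbered 31 of 103 in the centromere-side part and 16 of 54 in the part with fewest peaks. In the 3 remaining parts they numbered 16 of 79, 18 of 66 and 24 of 75, and over all X peaks they made up 27.9%. On 2L the part with most peaks was the second from the low end (70 peaks, 15.8 per Mb), on 3L the first (77 peaks, 16.6 per Mb) and on 3R the middle one (95 peaks, 17.1 per Mb).

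**Figure D1:**
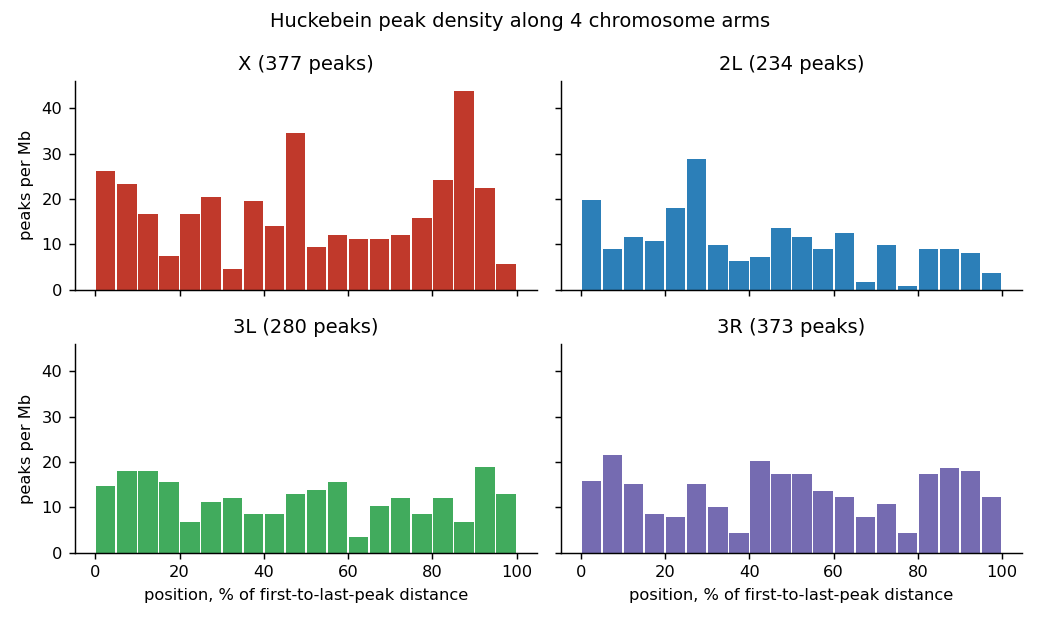
Huckebein peaks per Mb (vertical axis) in steps of 5% of each arm (horizontal axis, percent of the length between its outermost peaks, 0 at the low-coordinate end), 1 panel for each of X, 2L, 3L and 3R. The tallest bar of X, between 85 and 90%, reaches 43.8 peaks per Mb, and the tallest bars of 2L, 3L and 3R reach 28.8, 18.9 and 21.6.

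In 1 Mb bins the count on X ranged from 5 to 39 peaks, with a mean of 18.05 ± 9.04 (SD over 20 complete bins). The bin 19000001 to 20000000 held 39 peaks, the bin 1000001 to 2000000 held 32 and the bin 18000001 to 19000000 held 31. At least 25 peaks were found in 5 bins of X, in 1 bin of 2L and in no complete bin of 3L or 3R. Apart from 10000001 to 11000000, with 28 peaks, these 5 bins of X lay side by side in 2 runs. The run from 18000001 to 20000000 carried 70 peaks (18.6% of X) and the run from 1000001 to 3000000 carried 57 (15.1%). The 15 complete bins with fewer than 25 peaks averaged 13.7 peaks. The mean over all complete bins was 13.4 on 3R, 12.3 on 3L and 10.5 on 2L. A fixed cut of 25 peaks favours the arm with the highest mean. The 5 densest bins held 42.9% of the peaks in complete bins on X and 46.6% on 2L (20 and 21 bins). The 6 densest held 41.7% on 3L and 35.0% on 3R (22 and 26 bins). The variance of the counts over their mean was 4.53 on X, 5.15 on 2L, 2.31 on 3L and 2.16 on 3R. By these measures 2L was more uneven than X. The sparsest X bins were 3000001 to 4000000 with 5, and 7000001 to 8000000, 12000001 to 13000000 and 15000001 to 16000000 with 9 each.

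Sparse bins of X were not always poor in strong peaks. In the bin 7000001 to 8000000, 5 of its 9 peaks scored 200 or more, the highest being 1628.56, and the median score was 201.88. In the densest bin the median score was 131.01 and 14 of 39 peaks scored 200 or more. Over the 20 bins of X, the number of peaks and their median score had a Spearman's rho of -0.38. On the other arms the coefficient differed in size and sign, at -0.21 on 3R, -0.02 on 2L and 0.39 on 3L. These are descriptions over neighbouring bins of 1 list. The densest bin also had the widest peaks of any X bin, with a median of 810 bp.

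The 5 stretches of 100 kb with most peaks lay in these dense regions or near the middle of the arm. The densest, X 1284629 to 1372336, had 13 peaks with scores of 58.11 to 320.9 and a median of 101.27. The second, 19552590 to 19643656, had 12 peaks and a highest score of 434.55. The stretch 18689011 to 18785719 had 10 peaks, with a median of 72.63 and a highest score of 511.66. The stretches 2562361 to 2632617 and 10969375 to 11056802 had 9 peaks each, with highest scores of 301.22 and 268.79. None of these 5 stretches held any of the 12 highest-scoring X peaks, but each held only 9 to 13 of the 377 X peaks. In the order given, 2 of 13, 3 of 12, 4 of 10, 2 of 9 and 2 of 9 peaks scored 200 or more, against 27.9% of all X peaks. On 2L and 3L the densest 100 kb held 8 peaks, and on 3R it held 9. The 9 peaks of 3R lay within 38.0 kb and all 9 had another within 5 kb. The 13 peaks of X extended over 87.7 kb and 8 of them did.

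The longest stretch of X without a peak was 21229941 to 21877694, 648 kb next to the last peak of the arm, and the peaks on either side of it scored only 54.38 and 52.89. The next were 3185915 to 3782945 (597 kb) and 3783471 to 4269520 (486 kb), parted by a single peak of score 58.73. The remaining ones were 9649072 to 10109326 (460 kb) and 694956 to 1114191 (419 kb). On 2L the longest empty stretch measured 1138 kb, on 3R 656 kb and on 3L 502 kb. Whether these stretches hold sequence to which reads could be mapped was not tested.

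Close neighbours were common on X. Of the 377 X peaks, 134 (35.5%, Clopper-Pearson 95% interval 30.7 to 40.6) had another peak within 5 kb, measured between midpoints. The share was 29.6% on 3L, 24.4% on 2L and 20.1% on 3R. The median distance to the nearest peak was 8.29 kb on X, against 15.5 kb on 3L, 17.6 kb on 3R and 19.98 kb on 2L. A dense arm brings peaks nearer to each other, and the order of X, 3L, 2L and 3R by this share was not their order by density, since 3R was denser than 3L and 2L. With the distance set to 0.1 times the mean spacing of each arm (5.69 kb on X, 7.46 to 9.50 kb on the others), the shares were 39.5% on X, 36.4% on 3L, 34.2% on 2L and 24.4% on 3R. The gap between X and the arms 3L and 2L was thus smaller on this scale, which was chosen after the data were seen.

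**Figure D2:**
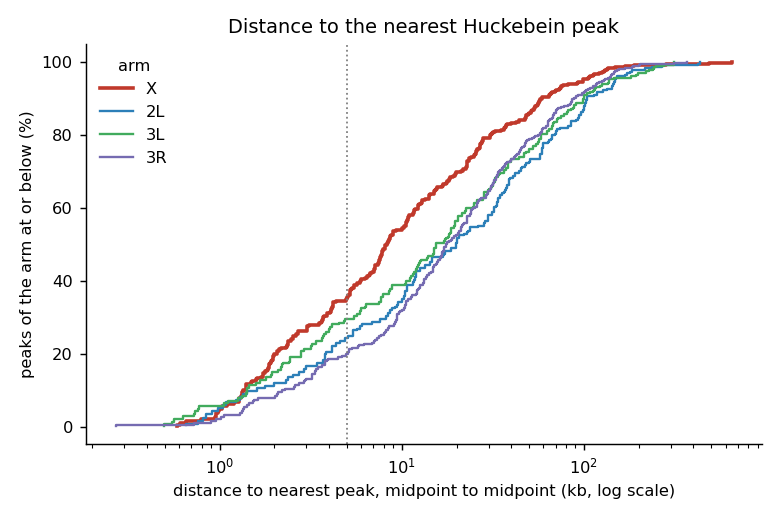
Percentage of the peaks of an arm (vertical axis) whose nearest peak lies at or below a given midpoint distance (horizontal axis, kb, log scale), with 1 line per arm and a dotted line at 5 kb. At 5 kb the line of X stands at 35.5%, above those of 3L, 2L and 3R at 29.6, 24.4 and 20.1%.

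The spacing between close X peaks was most often 1 to 2 kb. Of 376 distances between successive X peaks, 9 were at most 1 kb, 31 lay between 1 and 2 kb, 16 between 2 and 3 kb, 13 between 3 and 4 kb and 11 between 4 and 5 kb. The smallest gap between the edges of successive X peaks was 25 bp. Of the distances of at most 5 kb, the class from 1 to 2 kb held 31 of 80 on X, 9 of 31 on 2L, 13 of 44 on 3L and 11 of 41 on 3R. It was also the largest of these classes on 2L and 3L, whereas on 3R the class from 3 to 4 kb was the largest, with 12. Median peak widths were over 600 bp on every arm, so midpoints under 1 kb apart leave little room between peaks.

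When peaks were joined in a chain as long as neighbouring midpoints were at most 5 kb apart, X had 54 groups of 2 or more. These were 40 pairs, 8 triplets, 3 groups of 4, 2 groups of 5 and 1 group of 8. Groups of 3 or more numbered 14 on X (0.652 per Mb) and 4 on each of 2L, 3L and 3R (0.180, 0.172 and 0.144 per Mb). They took in 54 X peaks, or 14.3% of the arm, compared with 5.56% of the peaks on 2L, 4.64% on 3L and 4.02% on 3R. Among peaks scoring above the median of the list, which left 199 on X, there were 2 such groups on X, 0 on 2L, 1 on 3L and 1 on 3R.

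The largest group lay at X 20262528 to 20284347 and lined up 8 peaks over 21.8 kb. Its strongest peak, 20265884 to 20267635, scored 488.41 over 1752 bp, and its last, 20283496 to 20284347, scored 390.5. The first peak of the group scored 168.88, and the 5 peaks between the strong ones scored 56.71 to 89.19. Those 5 were 339 to 492 bp wide, all narrower than the X median of 614 bp. The group of 5 at 11006698 to 11017672 had the same outline on a smaller scale. Its outer peaks scored 268.79 and 263.55, and the 3 inner ones scored 91.21, 95.48 and 114.79. These inner peaks were 1018, 729 and 688 bp wide, all wider than the X median.

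The other groups of 4 or more had other outlines. At 2574607 to 2585654 the peaks scored 60.12, 64.95, 301.22, 90.4 and 283.3 in order along the arm, so both strong peaks stood near the high-coordinate end. At 10358409 to 10365143 the scores were 251.54, 304.68, 167.92 and 239.27, and this group filled 4.37 of its 6.74 kb with called sequence. At 1350202 to 1360115 the scores were 117.26, 190.31, 97.94 and 320.9. At 1366769 to 1372336 they were 98.28, 101.27, 96.4 and 211.22. The last-named groups lie within the densest 100 kb of X.

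**Figure D3:**
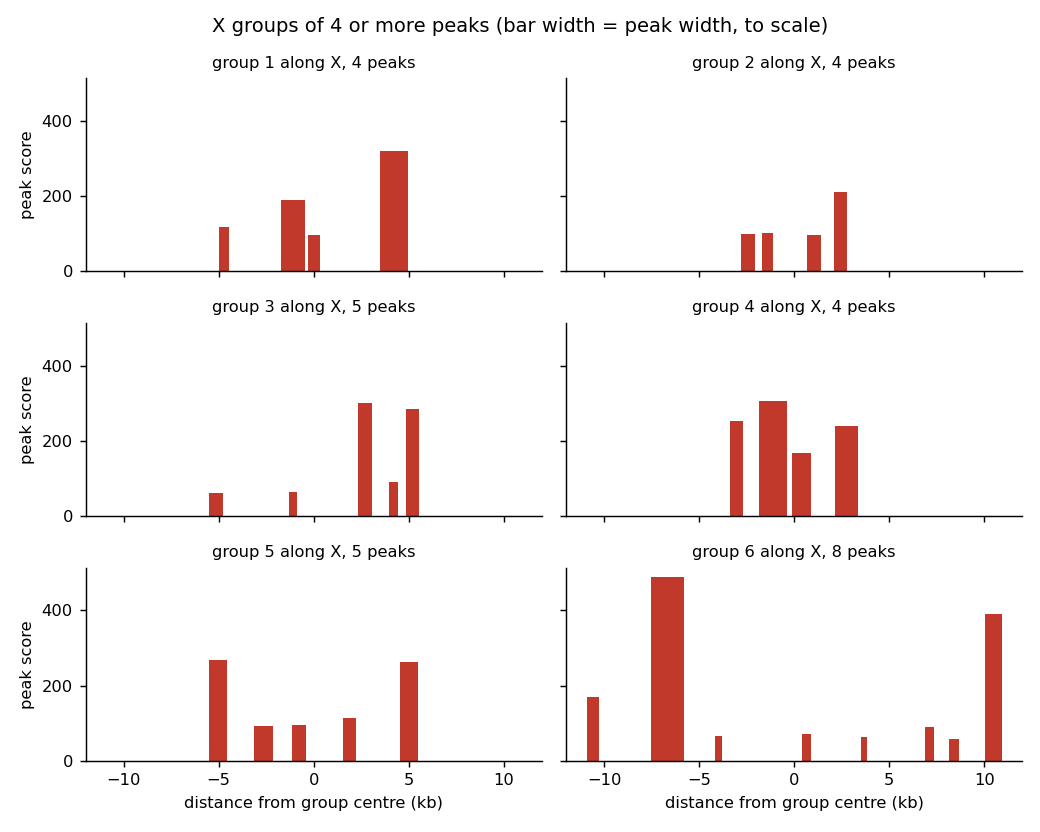
Authors' peak score (vertical axis) of each member of the 6 X groups of 4 or more peaks, in order along the arm, against distance from the centre of the group (horizontal axis, kb), with bar width equal to peak width. In the groups at the bottom (groups 5 and 6) the tall bars (268.79 and 263.55, then 488.41 and 390.5) enclose 3 and 5 lower ones.

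Members of an X group often differed in score. In 33 of the 54 X groups (61.1%) the strongest peak scored at least 2 times the weakest, as it did in 21 of 39 groups on 3L, 13 of 26 on 2L and 11 of 34 on 3R. A member scoring 200 or more was found in 35 X groups (64.8%), compared with 41.03 to 44.1% of the groups on the other arms. Over all peaks, 27.9% on X and 20.5 to 22.5% on the other arms scored 200 or more. A larger group can more easily hold such a member, and groups of 3 or more were more frequent on X. Whether the shares of groups go beyond these 2 differences was not tested. Peaks on both sides of 200 stood together in 27 X groups, 8 X groups held only peaks of 200 or more and 19 held none. On 2L, 3L and 3R the groups with peaks on both sides of 200 numbered 11 of 26, 15 of 39 and 12 of 34. Among the 14 X groups of 3 or more, 12 had such a member. The strongest member stood at an end of the row in 7 of these 14 groups. On 2L, 3L and 3R it did so in 3 of 4, 4 of 4 and 3 of 4 groups of 3 or more. The ends make up a larger part of a small group than of a large one. Triplets were 8 of the 14 groups on X, 3 of 4 on 2L, 3 of 4 on 3L and 2 of 4 on 3R, so these counts are not directly comparable.

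The share of X peaks with a close neighbour was higher in the upper score classes, a difference that was not tested. Of the 105 X peaks scoring 200 or more, 50 (47.6%, 95% interval 37.8 to 57.6) had a neighbour within 5 kb. Of the 272 scoring less, 84 did (30.9%, 95% interval 25.4 to 36.7). On the other arms the shares for strong and weaker peaks were 22.9 and 24.7% on 2L, 29.3 and 29.7% on 3L, and 23.8 and 19.03% on 3R. In 4 classes of rising score the X shares were 30.4, 31.7, 46.0 and 55.6%, the last class holding 18 peaks. The same classes gave 22.3, 28.4, 23.1 and 22.2% on 2L, 31.1, 27.8, 28.3 and 33.3% on 3L, and 19.02, 19.05, 21.5 and 31.6% on 3R, with 9 to 19 peaks in the last class. The intervals are Clopper-Pearson and treat peaks as independent, although members of a group are each other's neighbours.

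On X the share was also higher for strong peaks at other distances. Within 2 kb the shares were 26.7% of strong X peaks (95% interval 18.5 to 36.2) and 17.3% of weaker ones (13.0 to 22.3). Within 10 kb they were 64.8% (68 of 105, interval 54.8 to 73.8) and 136 of 272 peaks (43.9 to 56.1%). Without the densest 1 Mb bin they were 47.3% (36.7 to 58.0) and 30.8% (25.1 to 36.9). In each of these settings the intervals of strong and weaker X peaks overlapped. After peaks less than 1000 bp apart were merged, which left 342 X peaks, the shares came closer, at 27.6% (95% interval 19.01 to 37.5) and 20.5% (15.6 to 26.1), and these intervals overlapped. Within 10 kb, 3R also had a higher share among strong peaks (42.9 against 29.1%). The division at 200 and the 4 classes were chosen with results known. The peaks nearest to that division were X 7821212 to 7821936 with 201.88 and X 2263763 to 2264558 with 199.1, and those nearest to 500 were 7935019 to 7936185 with 505.43 and 19727350 to 19729040 with 490.56.

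**Figure D4:**
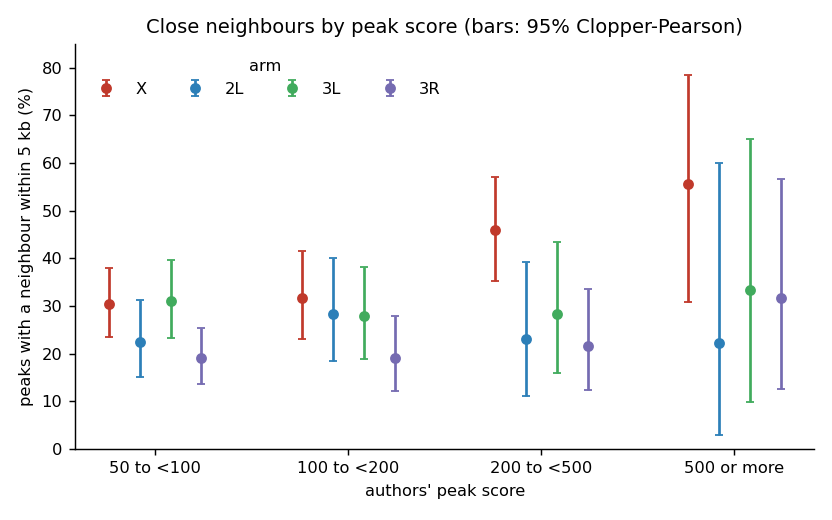
Percentage of peaks with a neighbour within 5 kb (vertical axis) in 4 classes of the authors' peak score (horizontal axis), with 1 point per arm and Clopper-Pearson 95% intervals as bars. The points of X go from 30.4% in the lowest class to 55.6% in the highest, those of 3R from 19.02 to 31.6%, those of 3L from 31.1 to 33.3% and those of 2L from 22.3 to 22.2%.

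Seen from the groups, X peaks with a neighbour within 5 kb had a median score of 132.38 (95% order-statistic interval 107.42 to 168.88, 134 peaks). Lone X peaks had a median of 102.63 (90.42 to 122.45, 243 peaks), and the intervals overlapped. Their median widths were 680 bp (679.5; interval 613 to 725) and 583 bp (559 to 625), respectively. On 2L, 3L and 3R together the medians of grouped and lone peaks were 106.44 and 103.03 for score and 657 and 658 bp for width. Both X pairs (median score 132.38) and larger X groups (126.04) lay above the lone X peaks. On 3R, pairs (107) and larger groups (119.22) also lay above lone peaks (100.15). On 2L pairs did (116.28 against 102.75) and larger groups did not (70.65). On 3L larger groups did (126.23 against 107.33) and pairs did not (94.1). The larger groups held 13 peaks on 2L, 13 on 3L and 15 on 3R.

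Among the 12 highest-scoring X peaks, 6 had a neighbour within 5 kb and 6 stood alone. The highest, 8294942 to 8296613 with 1759.86, was the second of the whole list. Its companion 1.40 kb away at 8294053 to 8294712 scored 99.23, a ratio of 17.7 that was the largest within any X pair. The next, 7945653 to 7946647 with 1628.56, had a companion of score 233.19 at a distance of 2.53 kb. The third, 10500468 to 10502412 with 1286.7, was the middle member of a triplet whose outer peaks scored 83.29 and 293.98.

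The companions of the other grouped peaks scored 66.6 to 208.22. The peak 18544735 to 18546671 with 932.59 closed a triplet whose other members scored 91.16 and 66.6. The peak 18221337 to 18222508 with 679.03 had a companion of 112.63, and 19765713 to 19766501 with 658.61 had one of 208.22. The 6 lone peaks were 1541490 to 1543076 (score 1250.84), 14897970 to 14899323 (1006.79), 4376500 to 4377662 (881.99), 9044332 to 9045760 (842.58), 20463186 to 20464165 (706.17) and 5577267 to 5578173 (630.67). Their nearest peaks were 10.8, 55.8, 53.9, 48.4, 26.9 and 23.3 kb away.

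The score of an X peak had a median of 114.55 (95% order-statistic interval 100.26 to 129.94), with quartiles of 72.88 and 215.59. On the other arms the medians were 100.99 to 106.8, and the upper quartiles 174.44 to 179.9. The arms were thus close at the middle of their score distributions and farther apart at the upper quartile. Per Mb, X had 4.89 peaks scoring 200 or more, against 3.02 on 3R, 2.496 on 3L and 2.16 on 2L. For scores of 500 or more the densities were 0.839, 0.683, 0.516 and 0.405 per Mb, from 18, 19, 12 and 9 peaks. As a share of the peaks of each arm, scores of 200 or more made up 27.9% on X, 22.5% on 3R, 20.7% on 3L and 20.5% on 2L. Scores of 500 or more made up 4.77, 5.09, 4.29 and 3.85%, so by this share 3R stood above X.

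Width and score were correlated on X, with the highest coefficient of the 4 arms. Spearman's rho of width and score was 0.72 over the 377 X peaks, 0.59 on 3L, 0.57 on 2L and 0.52 on 3R. These are correlations across peaks of 1 list, in which both values come from the same reads. Above the median score of the list, rho was 0.61 on X and 0.47 to 0.50 on the other arms. For lone X peaks it was 0.68, and for X peaks with a neighbour 0.76.

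The narrow X peaks were weak ones. In the class from 50 to under 100, X peaks had a median width of 497 bp (168 peaks, quartiles 393 and 602 bp), compared with 529.5 bp on 2L, 550.5 bp on 3L and 546 bp on 3R. From 100 to under 200 the medians were 628 bp on X, 630 bp on 2L, 670.5 bp on 3L and 685 bp on 3R. From 200 to under 500 the X median of 830 bp lay between 873 bp on 2L and 813 bp on 3R. At 500 or more it was 1165 bp on X and 934 to 1161 bp elsewhere. The quartile ranges of the arms overlapped in every class.

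The ends of the width range showed the same relation. The narrowest X peaks, 11140938 to 11141172, 9189482 to 9189724, 6306928 to 6307173, 10376778 to 10377025 and 13567476 to 13567732, were 235 to 257 bp wide and scored 50.56 to 55.71. All 5 were lone peaks. The widest was 10752863 to 10754949, with 2087 bp and a score of 401.09. The next were the high-scoring 10500468 to 10502412 (1945 bp) and 18544735 to 18546671 (1937 bp), followed by 19553752 to 19555667 (1916 bp, score 253.86) and 19671833 to 19673680 (1848 bp, score 243.85). Each of these 5 widest peaks had a neighbour within 5 kb. Over all X peaks 35.5% had such a neighbour and 64.5% were lone. The 5 widest all scored 200 or more, a class in which 47.6% of X peaks had one. Whether width and close neighbours go together apart from score was not tested.

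**Figure D5:**
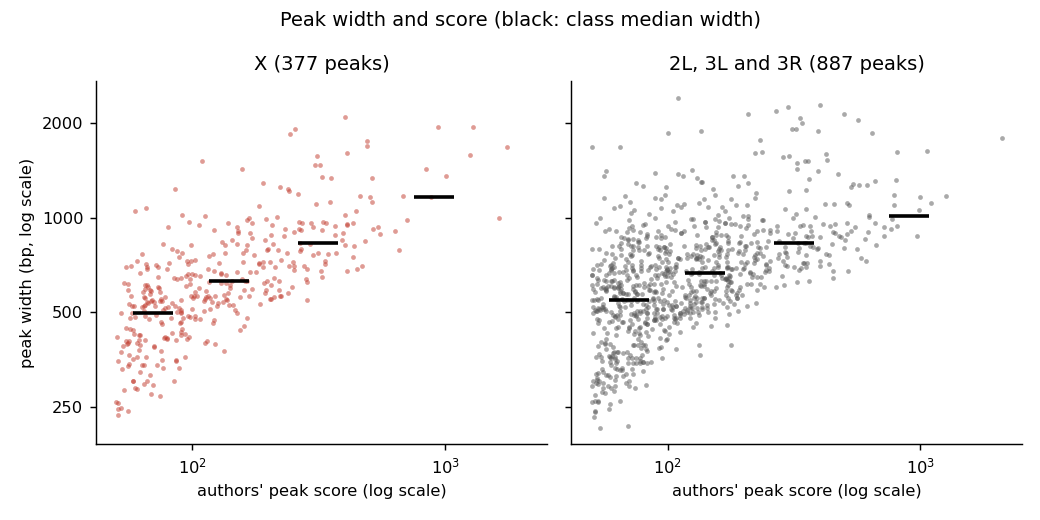
Peak width (vertical axis, bp, log scale) against the authors' peak score (horizontal axis, log scale), with 1 point per peak, for X on the left and 2L, 3L and 3R on the right. Black bars give the median width in 4 score classes, which on X are 497, 628, 830 and 1165 bp.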

How the data were processed

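ChIP DNA and input DNA were sequenced from embryos aged 8 to 16 h. Chromatin was cross-linked with 1.8% formaldehyde and sonicated, per the labels' protocols. Each line of the deposited list holds an interval and its score. Peaks were called by the authors using MACS, per the file headers, and the submitters' processing notes name Bowtie and the build BDGP5. Not given in the sources used here are the MACS version and threshold, the use of the input, the treatment of duplicate reads and the way the replicates were combined. The scale of the score is not stated either, so it was used only within the list, and the depth is unknown.

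Starts were taken as 0-based and printed 1-based. Peak widths count both end bases. Arm length was measured between the outermost peaks, and complete 1 Mb bins lay between them. Groups joined peaks with midpoints at most 5 kb apart. Functions for groups, bins, stretches and merging were tested on simulated lists. Python 3.11.15, NumPy 2.4.6, SciPy 1.17.1, pandas 2.3.3 and matplotlib 3.10.9 were used. Regions named are the 12 highest-scoring, 5 widest and 5 narrowest X peaks, groups of 4 or more, the 5 densest stretches, the 5 longest empty stretches, the 3 bins with most and with fewest peaks (ties kept), and peaks next to scores of 200 and 500. Companions of the highest peaks were added after their values were seen. The members and lists were chosen with earlier results of these data known. No test was run, since 1 list has no replicates.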

Additional observations from a re-analysis of the deposited data

How the results depend on the processing

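Of 28 alternative values, 14 stayed within their limits (the 95% interval of the value, or 1.5 times a count), 14 moved and 0 reversed. Only the density ratio and rho have a direction that could reverse. The others are medians, shares or counts of X alone. Restriction to peaks above the median score raised the ratio of X to the other arms to 1.66. The same restriction gave a median width of 768 bp, a median score of 207.01, a neighbour share of 27.6%, 2 groups of 3 or more, 7 peaks in the densest 100 kb and a rho of width and score of 0.61; it leaves out the lower-scoring peaks by construction. Merging peaks less than 1000 bp apart lowered the neighbour share to 22.5% and the groups of 3 or more from 14 to 8, with fewer peaks by construction. With 2 kb the share was 19.9% with 5 groups, and with 10 kb it was 54.1% with 23 groups. In bins of 2 Mb the densest bins held 37.0% of the X peaks in complete bins, against 42.9% in 1 Mb bins, where 5 of 20 bins were counted. The number of bins counted was rounded to a whole number, so these settings cover unlike shares of their bins. The ratio of X density to the other arms was 1.38 after merging, 1.43 with arm lengths from position 1 and 1.43 without the densest bin of each arm. No paired analysis was possible because 1 list was analysed and no test was made. Arm lengths of the build, mappable sequence and reads were not used here, so density and empty stretches cannot be corrected for them.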

Other observations

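The scores of successive X peaks showed next to no correlation in this list. For the 80 distances of at most 5 kb, Pearson's r of the logarithms of the scores was -0.0011 and Spearman's rho was 0.019. For the 296 longer distances they were 0.035 and 0.015. On 3R the 41 close distances gave 0.51 and 0.42, whereas 2L gave -0.0082 and -0.00081 (31 distances) and 3L gave -0.11 and -0.13 (44 distances). In X pairs the stronger peak had a median of 2.12 times the score of the weaker (quartiles 1.42 and 4.08), compared with 2.31 times on 3L (1.31 and 3.97), 1.84 times on 2L (1.502 and 3.03) and 1.38 times on 3R (1.19 and 1.81). These are descriptions across peaks that share 1 library.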
